A study of Mus musculus with 3 samples.

Results

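The integrated stress response is read here through 10 genes: the transcription factor genes Atf4, Atf5 and Ddit3, the effector genes Asns, Chac1 and Vldlr, the feedback genes Trib3 and Ppp1r15a, and the growth-restraining genes Sesn2 and Ddit4. They were chosen by gene symbol, and every probe set that the platform annotation assigns to one of these symbols was read, which gave 21 of the 45037 probe sets besides controls. RNA was measured on 3 Affymetrix mouse arrays of CD4 T cells of memory phenotype (helper T cells that resemble those that have met antigen before), sorted from spleen. Mice of the BALB/c strain had eaten a normal diet (ND, 1 array) or a high fat diet with 60 kcal% fat (HFD, 2 arrays) for 10 weeks, and no genetic change is named for either group. The labels give neither the age of the mice nor whether a sample was 1 mouse or a pool. So p-values here reflect only how far the 2 HFD arrays spread, largely pooled over genes, and that spread may be technical.

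When a cell runs short of amino acids, haem or protein folding capacity, or senses viral RNA, one of several kinases phosphorylates the translation factor eIF2. Most protein synthesis then slows, while messages with suitable upstream reading frames, Atf4 foremost, are translated more. ATF4 protein switches on genes for amino acid uptake and synthesis, and also genes that end the response or, if stress lasts, lead to cell death. Because ATF4 is set largely by translation, the level of its mRNA need not follow its activity. Activated T cells use this pathway to match amino acid supply to growth.

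The 10 genes did not move as one group. On the HFD arrays Asns rose 7.19-fold, Chac1 2.78-fold and Trib3 1.91-fold, while Ppp1r15a fell 2.02-fold and Ddit4 fell 1.28-fold. Atf4, Atf5, Ddit3 and Sesn2 did not pass the test on the probe set that represented each of them, and Vldlr was dim on every array. Of the 9 genes past the filter on low values, 3 (33.3%) were called higher and 2 (22.2%) lower, beside 20.5% and 29.2% of all 10341 genes tested. These are limma's moderated test on log2(intensity + 17.65) with an adjusted p under 0.05. Counted by size alone, without a p-value, 2 of the 9 were at least 2-fold higher in both HFD arrays, against 6.00% of all genes, and 0 were at least 2-fold lower in both, against 2.60%. The 269 genes behind that last share became 632 without HFD 1, 439 without HFD 2 and 137 with the median as offset. With 9 genes these shares are a description and do not set the list apart. With 1 ND array the spread comes from the HFD arrays alone, and equal variation was assumed for the ND array.

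The arrays themselves differed broadly, and this stands behind every result. Taken over all genes, absolute log2 differences had a median of 0.39 (HFD 1) and 0.45 (HFD 2) against ND, while HFD 1 and HFD 2 differed by a median of 0.13. The fitted difference of the median gene was log2 -0.15. The 3′ to 5′ ratio of the Gapdh and Actb control probe sets, a measure of RNA integrity, was 0.723 and 1.29 on ND and 0.681 to 0.706 and 1.27 to 1.34 on the HFD arrays. All 7 CD4 T cell markers with a probe set were above the filter minimum on each array. Their summed intensity was 77712 on ND and 63378 to 65100 on HFD. Differences were log2 -0.90 for Cd4, -0.78 for Cd44, -0.74 for Cd3e, -0.40 for Cd3g and -0.22 for Cd3d, all called lower. Cd28 (log2 -0.11) and Cd5 (log2 0.08) were not called. Summed B cell markers (7 genes) read 697 on ND and 2681 to 3055 on HFD, with Cd79a, Cr2 and Pax5 under the minimum on all arrays. Ms4a1 (56.8, 1612 and 1837) and Fcer2a (31.6, 524 and 644) carried that rise, while Cd79b (log2 -0.27) and Blnk (log2 -0.13) were not called. Summed macrophage and monocyte markers (11 genes) read 2482 on ND and 946 to 1151 on HFD, with C1qc, Cd14, Fcgr1 and Marco under the minimum, and dendritic cell markers (7 genes) 2005 and 832 to 966, with Xcr1 under it. Plasma cell markers (7 genes) read 1996 and 1446 to 1501, with Sdc1 and Tnfrsf17 under it. CD8 T and NK cell markers (6 genes) read 1086 and 1568 to 1778, with Klra8 under it, and erythroid and neutrophil markers (7 genes) 185 and 625 to 664, with Alas2, Camp, Elane and Hba-a1 under it. Their part in the results was not tested, and in bulk samples fewer cells of a type and less RNA per cell cannot be told apart.

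The strain label of the ND array was not settled by the values. H2-Ea, a class II histocompatibility gene that BALB/c mice express and C57BL/6 mice do not, read 11.5 on the ND array and 536 and 602 on the HFD arrays, and a second probe set read 17.0, 256 and 260. H2-Aa, expressed in the same antigen-presenting cells, read 7207 on ND and 3546 and 3664 on HFD. The remaining probe set of H2-Ea was dim on all arrays (5.66 to 21.2). These genes were chosen after their values were seen. Diet, strain and any handling that the single ND sample did not share cannot be told apart in what follows.

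**Figure D1:**
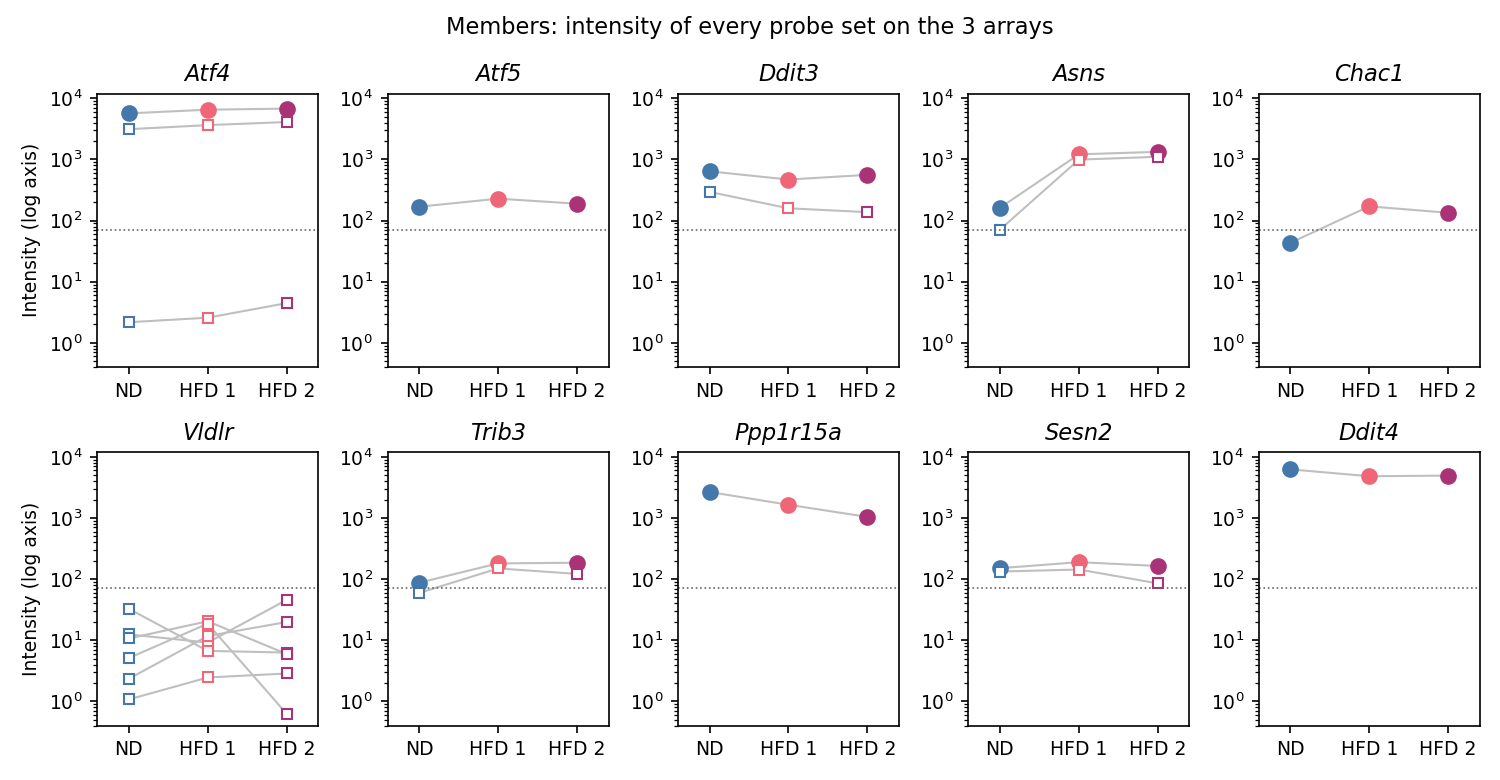
Intensity (log axis) of all 21 probe sets of the 10 genes on the ND array and both HFD arrays. Filled circles mark the brightest probe set of a gene past the filter, open squares the others, grey lines join 1 probe set across arrays, and the dotted line is the filter minimum of 71.4. Both Asns probe sets stand far higher on the HFD arrays, Ppp1r15a steps down on each, and all 6 Vldlr probe sets lie under the line.

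Among the transcription factors, Atf4 itself was abundant on all arrays and only slightly higher in HFD. Probe set 1448135_at read 5678 on ND and 6515 and 6794 on the HFD arrays (mean 6654 ± 197 SD, n = 2), and 1438992_x_at read 3126, 3646 and 4098. Both probe sets were higher on each HFD array than on ND, by 0.20 to 0.39 on the log2 scale. The difference on the first, log2 0.23 ± 0.09 (SE), did not pass the test (adjusted p = 0.0606). It was called when arrays were centred on their medians (log2 0.29, adjusted p = 0.0292) but in none of the 9 other alternatives, with adjusted p up to 0.311. The remaining probe set, 1439258_at, read 2.17 to 4.46 and gives no level.

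Atf5, a relative of ATF4 that is translated by the same upstream reading frame mechanism, read 169 on ND and 228 and 189 on HFD (209 ± 27.8, n = 2). Both HFD values lay above ND, but the difference of log2 0.27 ± 0.24 was about its own error (adjusted p = 0.358). Ddit3 encodes CHOP, the factor linked to cell death under prolonged stress. Its brighter probe set, 1417516_at, read 640 on ND and 469 and 560 on HFD (515 ± 64.4), a difference of log2 -0.31 ± 0.17 that was not called (adjusted p = 0.140). The second, 1443897_at, read 294 on ND and 159 and 137 on HFD, log2 -0.91. Both lay lower on each HFD array, by amounts that differed between probe sets, and averaging them gave a call (log2 -0.61, adjusted p = 0.0124).

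The 3 genes that rose were Asns, Chac1 and Trib3, and whether ATF4 raised them was not tested. Asns makes asparagine from aspartate and glutamine. Its probe set 1451095_at read 162 on ND and 1213 and 1333 on HFD (1273 ± 84.5, n = 2), log2 2.85 ± 0.15 (adjusted p = 2.6e-08). The other, 1433966_x_at, read 71.1, 993 and 1107, log2 3.59. The HFD arrays lay close together and far from ND on both probe sets, and Asns was called in all 10 alternatives (log2 2.53 to 3.22).

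Chac1, an enzyme that degrades glutathione, has 1 probe set, 1451382_at, which read 43.2 on ND and 171 and 134 on HFD (153 ± 25.9), log2 1.47 ± 0.32 (adjusted p = 0.00225). Its ND value lay under the filter minimum of 71.4, so Chac1 entered the test only through the HFD arrays. It was called in 8 of the 9 alternatives in which it was tested, and with all probe sets fitted and no filter its adjusted p was 0.0589. Trib3, a pseudokinase that binds ATF4 and damps its activity, read 87.3 on ND and 181 and 185 on HFD with 1456225_x_at (183 ± 3.38), log2 0.93 ± 0.27 (adjusted p = 0.0108). Its second probe set, 1426065_a_at, read 59.3, 149 and 122. Both probe sets gave close values, log2 0.93 and 0.99, but the call was lost with no filter (adjusted p = 0.0864) and with every probe set fitted (0.101). Probe sets with the suffix _x_at hold probes that can match other transcripts, which applies to 1 probe set each of Atf4, Asns and Trib3.

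ATF4 binds, together with a C/EBP-family partner, an element known as CARE, and short promoter windows of the 10 genes were searched for it. The windows run from 250 bases before to 50 bases after each RefSeq start (build GRCm38.p6), and the letters searched were TGATGNAA on either strand. Of the 10 genes 4 held a match, namely Asns, Chac1, Trib3 and Vldlr, beside 4.51% of all 27025 genes with a window and 2.59% of the 8441 tested genes with one. Of 44 other ATF4 targets with a window 15 (34.1%) held one. Among these Aars, Atf3, Gars, Got1, Iars, Tars and Yars rose and Jdp2 fell. Herpud1, Rab39b and Slc1a4 were not called, and Fgf21, Nupr1, Pycr1 and Slc7a11 were not tested. Both lists were drawn up as genes of this pathway or targets of ATF4. Shares above those of all genes are thus built into the choice and test nothing. The stretches shown come from the 4 members with a match, which include the 3 that rose, with the match in capitals, 5′ to 3′ on the strand of the gene.

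Asns, chr6:7693210-7693252, minus strand: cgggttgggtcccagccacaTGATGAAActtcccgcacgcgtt
Chac1, chr2:119351029-119351076, plus strand: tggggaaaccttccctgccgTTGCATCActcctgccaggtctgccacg
Trib3, chr2:152344034-152344051, minus strand: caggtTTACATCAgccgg
Vldlr, chr19:27216800-27216847, plus strand: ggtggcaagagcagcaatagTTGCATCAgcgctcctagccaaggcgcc

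The match begins 23 bases before the start in Asns, 193 in Chac1 and 200 in the second Vldlr window, and at base 15 after the start in Trib3. In the last 3 it lies on the opposite strand. The other 6 genes, which include the 2 that fell, had no such letters in these windows. A match or its lack says nothing of binding, and whether a match goes with a direction was not tested. Ppp1r15a instead held the letters of the cyclic AMP response element, TGACGTCA, which read the same on both strands and do not overlap the CARE letters. They begin 12 bases before its start and occur in 2.03% of all genes with a window and 3.71% of the tested genes with one.

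Ppp1r15a, chr7:45526269-45526300, minus strand: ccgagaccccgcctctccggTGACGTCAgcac

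Ppp1r15a encodes GADD34, the subunit that directs a phosphatase to eIF2 and so lifts the translation block. Its single probe set, 1448325_at, read 2658 on ND and 1644 and 1040 on HFD (1342 ± 426, n = 2), log2 -1.01 ± 0.20 (adjusted p = 0.00116). Both HFD arrays were lower than ND, but they differed from each other by more than those of any other member past the filter (log2 -0.69 and -1.34). The call was lost with no filter (adjusted p = 0.0533), with every probe set fitted (0.0752) and without a variance trend (0.0577). Its partner paralog Ppp1r15b, the constitutive subunit for the same phosphatase, read 4763 on ND and 4324 and 4288 on HFD (log2 -0.14 ± 0.10, adjusted p = 0.25; other probe set -0.54).

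Sesn2 and Ddit4 (REDD1) both restrain mTORC1, the kinase complex that drives growth when amino acids are plentiful, and neither rose. Ddit4 was abundant, at 6238 on ND and 4815 and 4932 on HFD (4873 ± 83.0), log2 -0.36 ± 0.10 (adjusted p = 0.00880). The HFD values were close together and below ND, yet relative to the median gene the difference was -0.20, and the call was lost without a variance trend (adjusted p = 0.0901) and with every probe set fitted (0.0597). Sesn2 read 151, 189 and 164 on 1425139_at (log2 0.20 ± 0.25, adjusted p = 0.524) and 133, 143 and 85.0 on 1451599_at, so its probe sets differed in direction.

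Vldlr, a lipoprotein receptor that ATF4 induces under endoplasmic reticulum stress, had 6 probe sets. They read 1.07 to 32.6 on ND, 2.46 to 20.4 on HFD 1 and 0.626 to 45.7 on HFD 2. All lay under the filter minimum on each array and their directions were mixed, so no difference is given. Detection calls were not used here, and such values cannot be told from background.

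**Figure D2:**
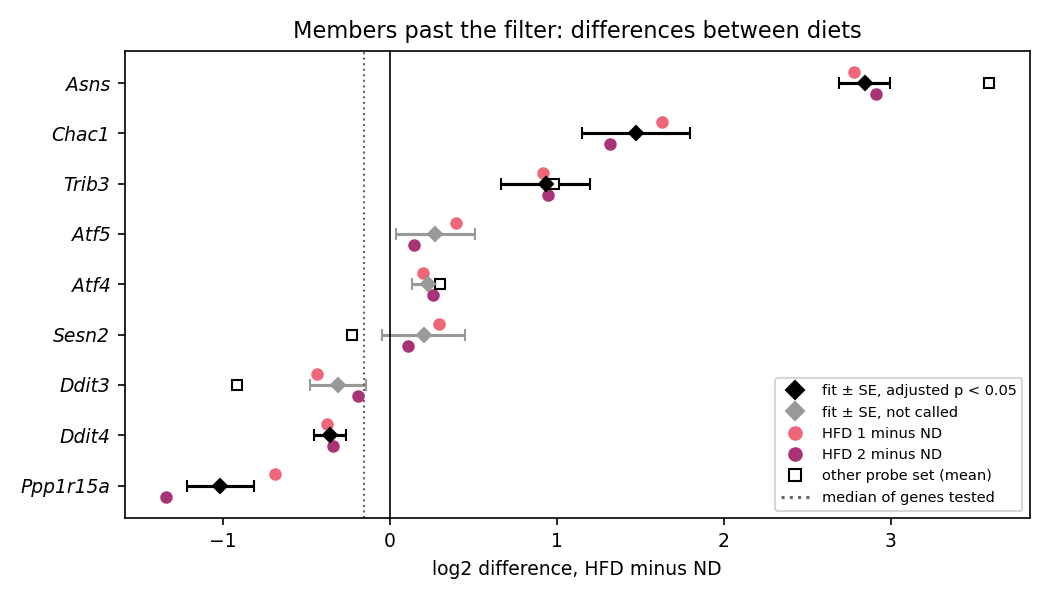
Log2 difference, HFD minus ND, for the 9 genes past the filter. Diamonds and bars are the fitted difference ± SE of the representing probe set (black, adjusted p under 0.05; grey, not called), circles the HFD arrays taken singly, open squares the mean of another probe set past the filter, and the dotted line the median of all genes tested. Asns, Chac1 and Trib3 lie to the right, Ddit4 and Ppp1r15a to the left, and the second probe sets of Ddit3 (-0.91) and Sesn2 (-0.23) lie away from the first.

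Close relatives of the 10 genes were mostly lower in HFD. Of 9 paralogs past the filter 6 (66.7%) fell and 0 rose (0 by limma also at an unadjusted p under 0.05). Of all genes tested 29.2% fell and 20.5% rose. The median of the paralogs was log2 -0.54 beside -0.15 for all genes. Of the Tribbles family, Trib3 rose, while Trib1 fell from 269 to 115 and 134 (log2 -1.01, adjusted p = 0.00531; other probe set -0.23) and Trib2 from 5017 to 3265 and 2668 (log2 -0.76, adjusted p = 3.5e-04). The sestrins Sesn1 (3196 to 2031 and 1855, log2 -0.71, adjusted p = 3.7e-04) and Sesn3 (5763 to 3511 and 3268, log2 -0.76, adjusted p = 8.4e-05) fell. Creb3 and Creb1, basic leucine zipper factors, fell by 0.54 and 0.36 on the log2 scale, with 4 further Creb1 probe sets between -0.41 and 0.07. Chac2, the constitutive relative of Chac1, read 392 on ND and 421 and 479 on HFD (log2 0.19 ± 0.17, adjusted p = 0.387), and the lipoprotein receptor Lrp8 read 358, 347 and 380 (log2 0.02 ± 0.18, adjusted p = 0.936; other probe set -0.33). Whether a member differs from its relatives was not tested.

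Other textbook targets of ATF4 were mostly higher in HFD. Of 46 such genes past the filter 31 (67.4%) rose and 4 (8.70%) fell, beside 20.5% and 29.2% of all genes tested. Their median was log2 0.87. These lists were chosen with earlier results of these data known, so the shares are a description. Of 11 genes of amino acid synthesis and one-carbon metabolism 10 rose and 0 fell (0 also at an unadjusted p under 0.05). Among the 10, Phgdh rose by log2 1.05 on its representing probe set. Its other probe sets gave log2 -0.37, 0.71 and 0.55, so 1 went the other way. Cth, the last enzyme of cysteine synthesis, read 0.672 on ND and 157 and 167 on HFD (log2 3.29 ± 0.39, adjusted p = 2.4e-05), a size that depends on the offset. Like Chac1, 3 of the 31 genes that rose, Cth, Gpt2 and Slc7a3, lay under the filter minimum on ND and entered the test only through the HFD arrays. Psat1 of serine synthesis rose from 1380 to 5276 and 5691 (log2 1.98), Shmt2, the mitochondrial serine hydroxymethyltransferase, from 515 to 2464 and 2419 (log2 2.21; other probe sets 0.90 to 1.96), and the branched-chain transaminase Bcat1 from 104 to 1817 and 2012 (log2 3.98; other probe sets 1.13 and 2.68).

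All 13 genes of tRNA charging and export rose, namely 12 aminoacyl-tRNA synthetases and Xpot, beside 20.5% of all genes tested. Among them Iars rose from 1921 to 5874 and 6770 (log2 1.71), Mars1 from 1246 to 3394 and 3917 (log2 1.54), Aars from 931 to 2490 and 2711 (log2 1.46; other probe set 0.83) and Cars from 282 to 765 and 811 (log2 1.42). Of 10 amino acid transporters 6 (60.0%) rose and 0 fell (0 also at an unadjusted p under 0.05). Slc7a5, the large neutral amino acid transporter, rose from 374 to 2584 and 3499 (log2 2.95 ± 0.16, adjusted p = 3.6e-08). The cationic transporters Slc7a1 (log2 1.12) and Slc7a3 (log2 1.23) and the glycine transporter Slc6a9 (log2 0.89; other probe set 0.18) rose less. Among transporters not called, other probe sets past the filter were lower in HFD for Slc38a2 (log2 -0.69 and -0.38). They were higher for Slc38a1 (log2 0.43) and Slc1a4 (log2 0.44). With no filter 3 of 11 transporters were called higher, beside 1663 of all 18193 genes. With each probe set fitted 2 of 11 were, beside 2629 of all 45037 probe sets. With probe sets averaged 4 of 10 were called higher, and 4 of 10 without a variance trend, each with 1 lower at an unadjusted p under 0.05. Of all 10341 genes 1846 and 1652 were called higher in these 2 settings.

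Of 12 signalling and stress targets past the filter 2 (16.7%) rose and 4 (33.3%) fell, shares near the 20.5% and 29.2% of all genes tested. Eif4ebp1, a translation repressor that mTORC1 inactivates, rose from 414 to 1549 and 1651 (log2 1.90, with other probe sets at -0.11 and 1.53). The other gene that rose was Atf3, from 127 to 196 and 306 (log2 0.86). Pmaip1, the death-promoting NOXA, fell from 1627 to 754 and 756 (log2 -1.09 ± 0.14, adjusted p = 3.7e-05), Jdp2 from 367 to 166 and 169 (log2 -1.06) and Cebpb, a partner of ATF4 on CARE elements, from 3497 to 1844 and 1717 (log2 -0.97). Beside these falls and that of Ppp1r15a, summed macrophage and monocyte markers were lower on HFD too, as given above. Their part was not tested.

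**Figure D3:**
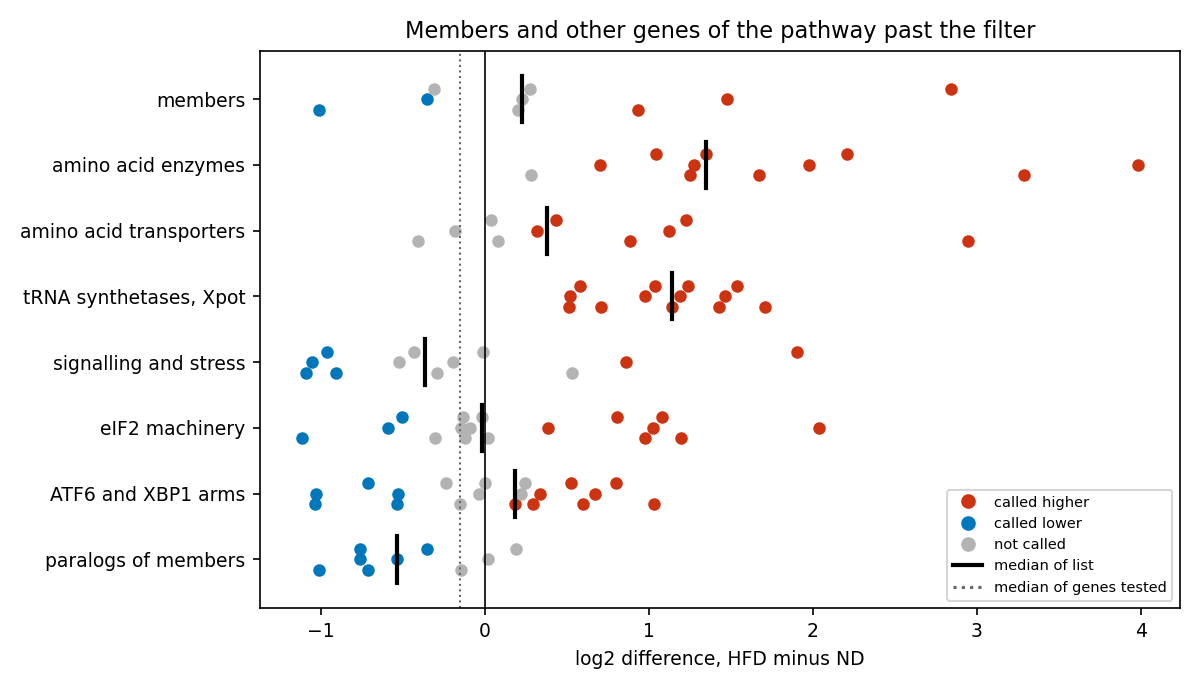
Log2 difference, HFD minus ND, of each gene past the filter in the 10-gene list and in 7 further lists. Red points were called higher, blue lower and grey not called, black bars are list medians and the dotted line is the median of all genes tested. The amino acid enzymes and tRNA synthetases lie to the right with medians of 1.35 and 1.14, while signalling and stress targets (-0.36) and paralogs (-0.54) lie mostly to the left.

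Upstream of Atf4, the eIF2 machinery was mixed: of 17 genes 7 (41.2%) rose and 3 (17.6%) fell, beside 20.5% and 29.2% of all genes tested. Of the 5 subunits of the exchange factor eIF2B, Eif2b1, Eif2b3, Eif2b4 and Eif2b5 rose, while Eif2b2 was not called (log2 0.02, adjusted p = 0.905; other probe sets 0.02 and -0.57). Eif2b3 rose from 390 to 1496 and 1835 (log2 2.04), Eif2b5 from 1186 to 2408 and 2647 (log2 1.08) and Eif2s2 from 6550 to 14570 and 15537 (log2 1.20), although 5 further Eif2s2 probe sets spanned -0.40 to 1.66. Impact, an inhibitor of the amino acid sensing kinase GCN2, fell from 1958 to 997 and 799 (log2 -1.12; other probe sets -0.22 and -0.38). Of the 4 eIF2 kinases, Eif2ak3 (PERK, log2 -0.59, adjusted p = 0.00446) and Eif2ak2 (PKR, log2 -0.51, adjusted p = 0.0271) fell. Eif2ak1 (HRI) and Eif2ak4 (GCN2) were not called, and their small differences changed sign under quantile normalization (log2 -0.09 to 0.07 and -0.02 to 0.13).

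The ATF6 and XBP1 arms of the unfolded protein response, which run beside ATF4 under folding stress, were mixed. Of 19 genes 8 (42.1%) rose and 5 (26.3%) fell, beside 20.5% and 29.2% of all genes tested. Under quantile normalization 5 rose and 6 fell. The folding factors Sdf2l1 (1095 to 2141 and 2375, log2 1.03) and Pdia6 (log2 0.80; other probe set 0.17) rose, while the sensor kinase Ern1 (767 to 385 and 349, log2 -1.03) and the cochaperone Dnajb9 (3499 to 1695 and 1689, log2 -1.04) fell. Ddit4 is also induced by glucocorticoids. Of 8 glucocorticoid-induced genes 6 fell and 0 rose (0 also at an unadjusted p under 0.05), beside 29.2% and 20.5% of all genes tested. Those that fell included Dusp1 (log2 -1.35), Zbtb16 (-1.04), Klf9 (-0.91) and Sgk1 (-0.77). Klf9 is also among the 4 signalling and stress targets that fell, so it is counted in both lists. Whether Ddit4 shares a cause with the glucocorticoid-induced genes was not tested.

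By distance between the pairs of log2 differences to ND over the 3 arrays, the genes nearest to Asns (2.78 and 2.91) were Akr1c18 (2.78 and 2.98), Snhg3 (2.69 and 2.89) and 1110038B12Rik (2.69 and 2.89), at distances of 0.072 to 0.091. Akr1c18 read 15.6 on ND, under the offset. Nearest to Ppp1r15a (-0.69 and -1.34) were Slc6a8 (-0.68 and -1.31), Sec16b (-0.66 and -1.37) and S1pr1 (-0.71 and -1.29). With 3 arrays such likeness is shared by many genes and is only a description.

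**Figure D4:**
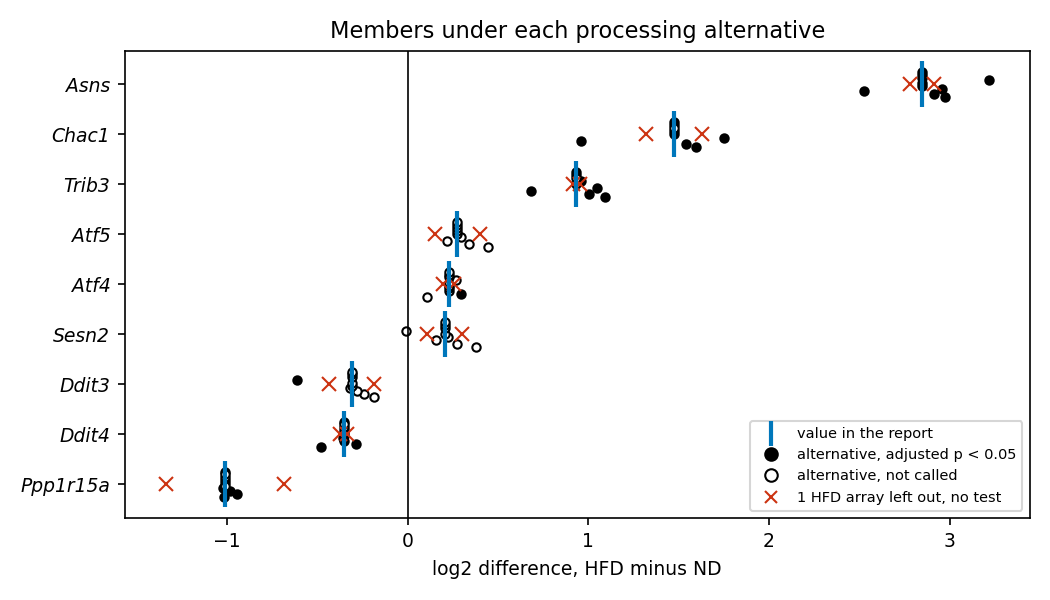
Log2 difference, HFD minus ND, of the 9 genes past the filter under each processing alternative. Blue bars give the reported value, filled circles alternatives with an adjusted p under 0.05, open circles those not called, and crosses the values with 1 HFD array left out, which have no test. Asns is called throughout, Atf5 and Sesn2 in none, and the left-out arrays move Ppp1r15a between -0.69 and -1.34.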

How the data were processed

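The deposited values are probe set intensity on a linear scale, with 1 column for each array. GCOS, Affymetrix's array software, is named per the submitters' processing notes, with algorithm and version not given in the sources used here. After trimming 2% at each end, the mean is 500.0 on every array, so a large change of bright transcripts shifts other values the opposite way. Of 45037 probe sets besides 64 controls, 34945 had 1 gene symbol in the platform annotation, 932 several and 9160 none, and only the first were named. Through Entrez identifiers, 34741 matched the RefSeq gene table of GRCm38.p6, and 0 symbols changed. Promoter windows came from RefSeq for all 10 genes.

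Values were transformed as log2(intensity + 17.65), where the offset is the 25th percentile over every value. Genes with a mean over 3 arrays above 71.4, the median of all probe sets, were kept, each through its brightest probe set, leaving 10341 genes. The comparison, HFD minus ND, used limma 3.58.1 in R 4.3.3 (lmFit, eBayes with a trend), two-sided, with Benjamini-Hochberg adjustment over all genes tested. The residual has 1 degree of freedom, moderated by 11.7 prior degrees. The fit was tested on simulated data. There the ND array was given the same variation as the HFD arrays, so that assumption was not tested. Fold changes refer to the offset scale, which understates dim genes.

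The members and lists were chosen with earlier results of these data known. Named genes were all members, all paralogs past the filter, and from the other pathway lists up to 4 called genes whose smaller difference over both HFD arrays was largest, plus the 3 genes nearest in pattern to the called members with the largest rise and fall. The 4 eIF2 kinases, Atf3, and Phgdh and the transporters named for other probe sets were added after their values were seen. Marker lists are given as sums, with single values for CD4 T cell and B cell markers. Python 3.11.15 with numpy 2.4.6, pandas 2.3.3 and matplotlib 3.10.9 made the tables and plots.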

Additional observations from a re-analysis of the deposited data

How the results depend on the processing

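The number of arrays limits every result, and the lone ND array has no error of its own. The 10 fitted alternatives changed how arrays were normalized, the offset, the filter, how probe sets were merged, or the variance model. Members called higher fell from 3 to 1 with the filter at the 75th percentile, where 5 members were tested, and to 1 with each probe set fitted and no filter. That count was 2 with no filter alone and 4 when arrays were centred on their medians. Members called lower fell from 2 to 1 with no filter and rose to 3 with probe sets averaged. By limma they fell to 0 with each probe set fitted and to 0 without a variance trend (2 at an unadjusted p under 0.05 in both). Members at least 2-fold higher in both HFD arrays fell from 2 to 1 when the median was used as offset and to 1 with the stricter filter. Such members numbered 3 with quantile normalization and 3 with the offset at the 5th percentile. Members at least 2-fold lower ranged from 0 to 1 when 1 HFD array was left out, the 1 being Ppp1r15a without HFD 1. Sesn2 changed sign when its probe sets were averaged (log2 -0.012, adjusted p = 0.975). In all other fitted alternatives the tested members kept their sign. Other ATF4 targets called higher ranged from 23 to 32, and those called lower from 4 to 5, while the number tested changed too. With each probe set fitted 23 of 54 were called higher, beside 2629 of all 45037 probe sets. With the stricter filter 27 of 35 were, beside 1877 of all 6550 genes. With arrays centred on their medians 32 of 46 were, beside 2413 of all 10341 genes. Of all genes, 3015 were called lower, and 1922 with no filter, which tests 18193 genes. The causes of these shifts were not tested.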
